A study of Mus musculus with 6 samples.

Results

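The Vestigial-like (Vgll), TEAD (Tead) and YAP/TAZ genes were examined in the hippocampus of p300-ifKO mice and their control littermates. YAP is encoded by Yap1 and TAZ by Wwtr1. The members were listed by name, Vgll1 to Vgll4, Tead1 to Tead4, Yap1 and Wwtr1, and all 10 were found among the 55471 genes of the count table. The family was chosen by the measured counts of 1 member, Vgll3, which had one of the smallest unadjusted p-values between the groups, so the difference in Vgll3 is given as a description without a test. The other 9 members came with it by family name and not by their values.

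TEAD proteins bind DNA but activate transcription poorly by themselves, and need a cofactor. YAP and TAZ are cofactors held in the cytoplasm when the Hippo kinases phosphorylate them, and enter the nucleus to bind TEADs when that pathway is off. Vestigial-like proteins bind the same surface of TEADs through a short motif, and VGLL4 is known as a competitor of YAP. In the brain, YAP and TAZ are known mainly from astrocytes, neural stem cells, endothelium and other nonneuronal cells, whereas the p300-ifKO removes p300 from neurons.

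The data were RNA-seq libraries from the whole hippocampus of individual male C57BL/6 mice (C57BL/6J in the study's methods), 3 control and 3 p300-ifKO, labeled as 3 to 6 months old. All mice received 5 administrations of tamoxifen at 20 mg/ml in corn oil on alternate days. The p300-ifKO mice carried floxed Ep300 and Camk2a-creERT2, a tamoxifen-dependent Cre driven by Camk2a in excitatory forebrain neurons, and make a truncated p300, so Ep300 stays intact in all other cells of the tissue. The controls are described in the protocol as littermates that lack creERT2, whereas each control library's own description gives the driver's name. Esr1, part of which lies in creERT2, had 109, 87.2 and 108 normalized counts in controls and 4217, 2416 and 2868 in p300-ifKO mice. Libraries held 23151568 to 28433823 counts. Ep300 had 1545, 1474 and 2334 normalized counts in controls and 478, 1350 and 912 in p300-ifKO mice, so that p300-ifKO replicate 2 lay closest to the controls. These counts include exons outside the deleted part. On the log2 scale Ep300 differed by −0.97 (SE 0.33; DESeq2 adjusted p 0.991), and Crebbp, its paralog, by −0.055 (SE 0.11). Defining markers of hippocampal excitatory neurons (6 genes) and of dentate gyrus (5), CA1 (4), CA2 (3) and CA3 (3) were detected, none of them at 0 in all libraries.

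Before the levels, the promoters of the family are shown, because many of them hold the letters that TEADs themselves recognize. RefSeq gave promoter windows on GRCm38.p6 (250 bases before to 50 after a start site) for 8 of the 10 members, all but Tead1 and Tead4. The TEAD core motif CATTCC, or GGAATG when read on the other strand, was searched in them, and capitals mark it. At least 1 window of 6 of the 8 members held a match: Vgll1, Vgll3, Vgll4, Tead3, Yap1 and Wwtr1. Across all genes, 4481 of 27025 (16.6%) held a match in at least 1 window, and across single windows 14.7%, or 9.34% of those with a GC content above 60%. Vgll2 and Tead2 had none. A match of these letters is not a measured binding site. The windows of the cofactor genes that were detected with at least 50 counts in each library are printed 5′ to 3′ on the strand of the gene:
Vgll3, chr16:65814939-65815238, plus strand, 1 match: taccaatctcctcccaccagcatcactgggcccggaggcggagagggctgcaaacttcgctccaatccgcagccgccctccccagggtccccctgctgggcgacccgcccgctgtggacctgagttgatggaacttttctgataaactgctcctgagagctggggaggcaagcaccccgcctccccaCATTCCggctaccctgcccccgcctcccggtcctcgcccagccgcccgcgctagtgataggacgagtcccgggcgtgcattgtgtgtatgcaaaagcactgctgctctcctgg
Vgll4, chr6:114969154-114969453, minus strand, 1 match: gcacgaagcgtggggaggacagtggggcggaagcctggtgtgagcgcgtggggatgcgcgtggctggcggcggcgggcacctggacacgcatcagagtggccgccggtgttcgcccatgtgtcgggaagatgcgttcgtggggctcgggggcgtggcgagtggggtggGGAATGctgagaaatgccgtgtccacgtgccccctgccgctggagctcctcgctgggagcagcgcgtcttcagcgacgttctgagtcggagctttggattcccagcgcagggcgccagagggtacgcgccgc
Yap1, chr9:8004547-8004846, minus strand, 1 match: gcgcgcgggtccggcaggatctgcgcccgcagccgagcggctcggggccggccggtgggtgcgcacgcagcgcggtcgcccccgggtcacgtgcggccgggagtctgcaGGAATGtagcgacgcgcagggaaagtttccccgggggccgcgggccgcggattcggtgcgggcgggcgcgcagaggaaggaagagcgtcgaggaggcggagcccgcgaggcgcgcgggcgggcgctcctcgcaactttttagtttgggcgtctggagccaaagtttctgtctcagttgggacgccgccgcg
Wwtr1, chr3:57575861-57576160, minus strand, 1 match: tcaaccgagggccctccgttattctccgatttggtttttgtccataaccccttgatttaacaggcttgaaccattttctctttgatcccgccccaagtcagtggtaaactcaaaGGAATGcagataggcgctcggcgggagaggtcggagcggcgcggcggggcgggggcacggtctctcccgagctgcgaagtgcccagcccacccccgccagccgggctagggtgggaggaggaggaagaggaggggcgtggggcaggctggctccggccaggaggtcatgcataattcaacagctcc
The match began 63 bases before the start site in Vgll3, 82 in Vgll4, 141 in Yap1 and 136 in Wwtr1. The second window of Wwtr1 overlaps the one shown and holds the same match. Tead3 had 3 overlapping windows, and the window with the most matches had 3, shown here because no other member had more than 1:
Tead3, chr17:28350551-28350850, minus strand, 3 matches: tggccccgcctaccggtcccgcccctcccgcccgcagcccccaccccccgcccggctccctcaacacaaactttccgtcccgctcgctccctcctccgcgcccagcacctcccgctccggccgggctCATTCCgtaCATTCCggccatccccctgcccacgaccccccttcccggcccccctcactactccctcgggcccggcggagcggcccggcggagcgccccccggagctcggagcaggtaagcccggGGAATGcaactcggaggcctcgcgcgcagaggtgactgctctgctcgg

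Positions given for genes are those of GENCODE M21 on GRCm38. How strongly each member was expressed was asked first, in normalized counts per kb of exonic length, a level that can be compared between genes. Vgll4 was highest at 93.1 ± 18.7 (SD, n = 6 libraries), followed by Wwtr1 at 82.6 ± 11.5, Tead1 at 59.98 ± 18.2 and Yap1 at 57.4 ± 7.72. Vgll3 was intermediate at 26.7 ± 15.1, with 38.1 ± 11.4 in controls and 15.2 ± 6.96 in p300-ifKO mice (SD, n = 3 each). Tead3 at 10.7 ± 1.80, Tead2 at 10.1 ± 2.96 and Tead4 at 3.93 ± 1.59 were low, and Vgll2 was barely detected at 1.33 ± 1.05. Vgll1 had 0 counts in all 6 libraries, which allows up to 3 counts per library, or 1.31 normalized counts per kb in the library with the smallest size factor. That limit covers counting error only.

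The order was then tested between neighbors within each library by an exact two-sided paired sign-flip permutation test, whose smallest p with 6 libraries is 0.0312. Of 8 neighboring pairs 4 had the same order in 6 of 6 libraries, each with an exact permutation p of 0.0312 and an adjusted p of 0.0625: Wwtr1 over Tead1 (1.43-fold), Yap1 over Vgll3 (2.502-fold), Tead2 over Tead4 (2.51-fold) and Tead4 over Vgll2 (2.35-fold). These folds come from the mean log2 difference within libraries after a pseudocount of 1 normalized count, and are not ratios of the mean levels above. The pseudocount weighs most on the fold over Vgll2, which had 0 to 5 counts per library. No pair passed 0.05 after adjustment over the 8 pairs. Tead1 and Yap1 were not separable (higher in 3 of 6 libraries, exact permutation p = 1), nor were Tead3 and Tead2 (higher in 3 of 6, exact permutation p = 0.688). Vgll4 was above Wwtr1, and Vgll3 above Tead3, in 5 of 6 libraries each (exact permutation p = 0.0625, adjusted p 0.0833). The library that broke the order of Vgll3 and Tead3 was p300-ifKO replicate 1, with 7.56 for Vgll3 and 9.76 for Tead3. Because the Vgll3 counts chose the family, the pairs of Vgll3 with Yap1 and with Tead3 are a description and no test. The count of 4 pairs includes Yap1 over Vgll3, and the adjustment over 8 pairs includes both.

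**Figure D1:**
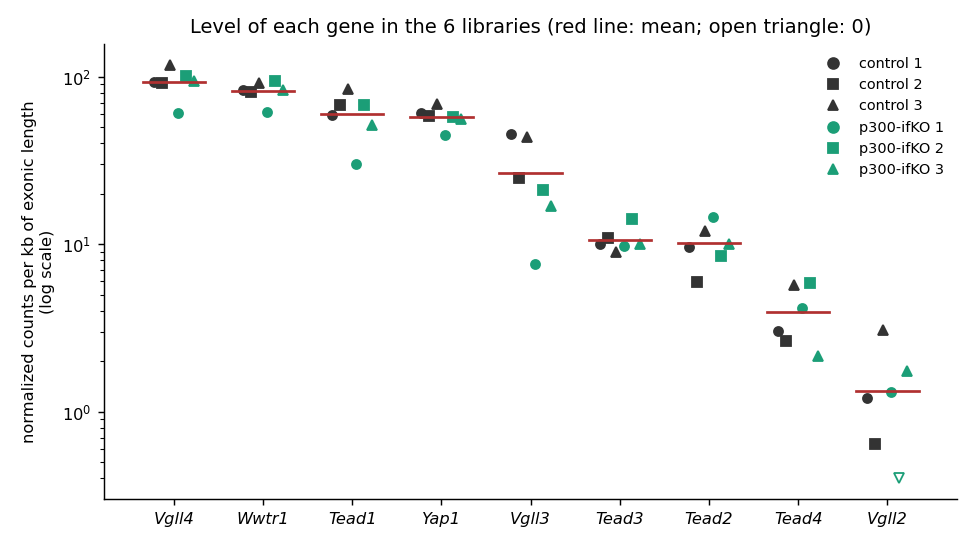
Level of each detected gene in normalized counts per kb of exonic length (log scale), with 1 symbol per library, black for control and green for p300-ifKO, and the mean of 6 libraries as a red line. Vgll4, Wwtr1, Tead1 and Yap1 lie between means of 57.4 and 93.1, Vgll3 spreads from 7.56 to 45.8, and an open triangle marks the library in which Vgll2 was at 0.

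The DNA-binding partners were compared between the groups next. Tead1 (ENSMUSG00000055320, chr7:112679318-112906807, plus strand), the most abundant TEAD gene, had 801, 917 and 1141 normalized counts in controls and 410, 916 and 697 in p300-ifKO mice. Control and p300-ifKO values overlapped, because p300-ifKO replicate 2 lay above control replicate 1. The means were 953 ± 173 and 675 ± 254 (SD, n = 3 each), with a log2 fold change of −0.50 (SE 0.28, 95% interval −1.04 to 0.048), which did not pass the threshold (adjusted p 0.991 in DESeq2). In whole tissue, fewer cells of a type and less RNA per cell cannot be told apart. Leaving out p300-ifKO replicate 2 put Tead1 at −0.78 (DESeq2 adjusted p 0.0254), and leaving out replicate 1 put it at −0.24. In the fit without replicate 2, 11129 genes had an adjusted p and 938 of them (8.43%) were called. With all 6 libraries it was 2 of 32773 (0.0061%), so the shares rest on unlike sets of genes. Vgll2, Tead2, Tead3 and Tead4 had no adjusted p in the fit without replicate 2.

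The other TEAD genes were low and pointed the other way. Tead2 (ENSMUSG00000030796, chr7:45215753-45233644, plus strand), known from neural progenitors, had 45.7, 28.4 and 57.1 normalized counts in controls. In p300-ifKO mice it had 69.8, 40.6 and 48.2, which is a change of 0.27 on the log2 scale (SE 0.38). Tead3 (ENSMUSG00000002249, chr17:28331671-28350817, minus strand) had 67.6, 73.5 and 60.2 against 65.5, 94.6 and 67.5, a change of 0.18 (SE 0.27). Tead4 (ENSMUSG00000030353, chr6:128224288-128300823, minus strand), known from the trophectoderm of the embryo, had 10.9, 9.46 and 20.4 against 15.0, 21.2 and 7.72, a change of 0.11 (SE 0.61). In each of the 3 genes the groups overlapped, the 95% interval spanned 0 and the adjusted p in DESeq2 was 0.991 or 0.996. The intervals reached from −0.47 to 1.01 for Tead2, from −0.36 to 0.72 for Tead3 and from −1.08 to 1.31 for Tead4, so that a rise of 1 on the log2 scale lay within the intervals of Tead2 and Tead4. The direction of Tead3 turned without p300-ifKO replicate 2 (−0.0097), and that of Tead4 in 3 of the 6 fits that left out a library.

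Tead1 thereby made up a smaller share of the summed TEAD level in each p300-ifKO mouse. It was 72.3%, 77.6% and 76.0% in controls and 51.5%, 70.4% and 69.8% in p300-ifKO mice, without overlap. The means were 75.3% ± 2.74 and 63.9% ± 10.7 (SD, n = 3 each). The exact two-sided permutation p was 0.1, the smallest that 3 against 3 allows, and 0.4 after adjustment over the 4 ratios and sums tested. The summed TEAD level itself was 93.2 ± 15.4 and 76.1 ± 18.8 normalized counts per kb (SD, n = 3 each; exact permutation p = 0.4).

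The cofactors YAP and TAZ were compared in the same way. Yap1 (ENSMUSG00000053110, chr9:7931999-8004596, minus strand) had 559, 537 and 633 normalized counts in controls and 412, 536 and 514 in p300-ifKO mice. All p300-ifKO values lay below all control values, but barely (535.5 in p300-ifKO replicate 2 and 536.9 in control replicate 2). Of all genes tested, 3.42% showed this arrangement and 3.21% the opposite one, which 0 members showed. The means were 576 ± 50.2 and 487 ± 65.7 (SD, n = 3 each), a difference of −0.24 on the log2 scale (SE 0.16, 95% interval −0.56 to 0.081; DESeq2 adjusted p 0.991). Wwtr1 (ENSMUSG00000027803, chr3:57455649-57575910, minus strand) had 399, 386 and 438 against 295, 451 and 400. Here p300-ifKO replicate 2 was the highest and replicate 1 the lowest of the 6 libraries, and Wwtr1 differed by −0.091 on the log2 scale (SE 0.19, 95% interval −0.47 to 0.29; DESeq2 adjusted p 0.991). For both genes a fall of 1 on the log2 scale lay outside the interval.

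The ratio of the Wwtr1 to the Yap1 level held within a narrow range in controls, at 1.38, 1.39 and 1.34. It was 1.39, 1.63 and 1.51 in p300-ifKO mice, an overlap with an exact permutation p of 0.2. The summed level of both cofactors over that of the 4 TEAD genes was 1.60 ± 0.157 in controls and 1.76 ± 0.159 in p300-ifKO mice (SD, n = 3 each; exact permutation p = 0.3).

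Among the Vestigial-like genes, Vgll3 (ENSMUSG00000091243, chr16:65815257-65866368, plus strand) carried the difference that led to this family. It had 325, 178 and 309 normalized counts in controls and 53.7, 150 and 121 in p300-ifKO mice. No p300-ifKO value reached the control range, with control replicate 2 the lowest control and p300-ifKO replicate 2 the highest p300-ifKO library. The means were 271 ± 81.0 and 108 ± 49.4 (SD, n = 3 each), 2.502-fold lower in p300-ifKO, and the log2 fold change was −1.32 (SE 0.37). By unadjusted p it ranked 4 among the 32773 genes tested, behind Esr1, Arsi and Igkc and before C1qtnf12 and Glp2r. Glp2r (−0.95) ranked 6 and Efna5 (−0.82) ranked 7. Vgll3 was not among the 2 genes that passed after adjustment over all genes, Esr1 (4.96) and Arsi (2.56). The study attributes both to the Camk2a-creERT2 transgene, which carries Arsi and part of Esr1. Over the fits that left out a library, its change ranged from −1.63 without p300-ifKO replicate 2 to −1.0 without p300-ifKO replicate 1, and with 1 surrogate variable it was −0.91.

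Vgll4 (ENSMUSG00000030315, chr6:114860628-114969994, minus strand), the most abundant member, had 501, 497 and 637 normalized counts in controls and 327, 545 and 508 in p300-ifKO mice. Only p300-ifKO replicate 1 stood below the control range, and the difference was −0.24 on the log2 scale (SE 0.23, 95% interval −0.69 to 0.20; DESeq2 adjusted p 0.991). Vgll2 (ENSMUSG00000049641, chr10:52022502-52028471, plus strand), a gene known from skeletal muscle, had between 0 and 5 counts per library and a log2 fold change of −0.71 (SE 1.45, 95% interval −3.55 to 2.13), too wide to give a direction. Vgll1 (ENSMUSG00000031131, chrX:57088106-57106540, plus strand) had no counts to compare. The level of Vgll4 over that of Vgll3 was 2.03, 3.69 and 2.71 in controls and 8.004, 4.78 and 5.55 in p300-ifKO mice, a description that rests on Vgll3 and was not tested.

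**Figure D2:**
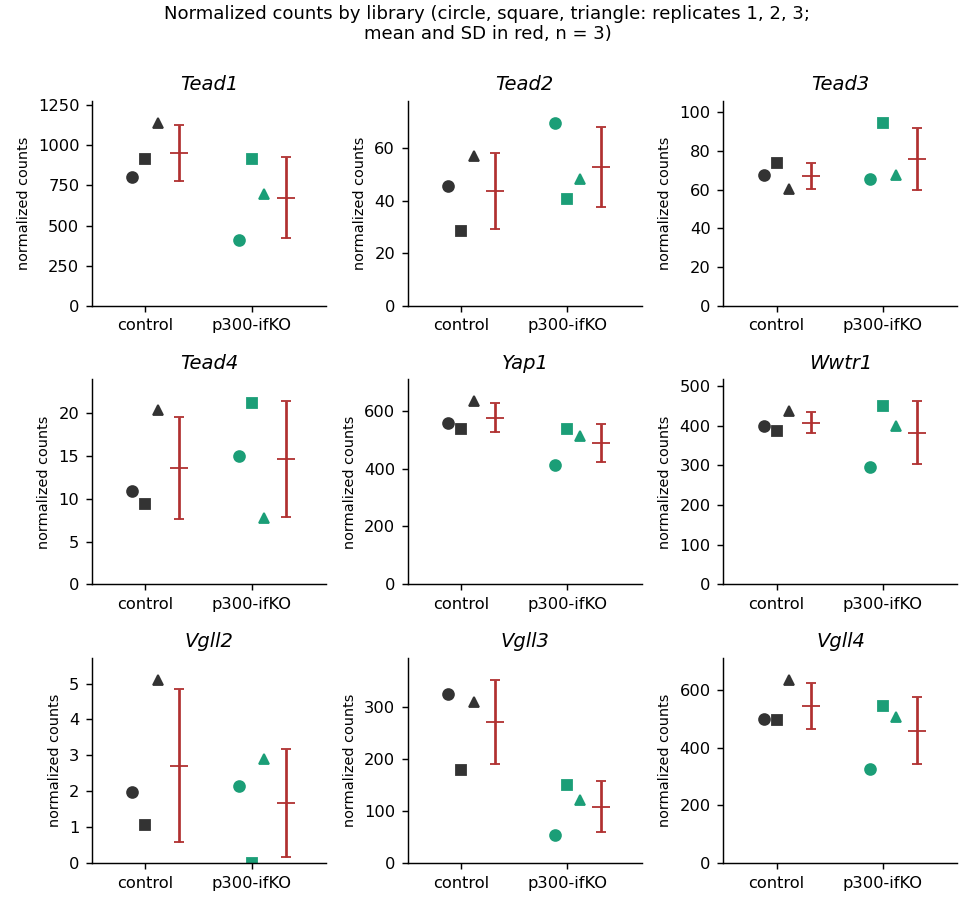
Normalized counts of the 9 detected genes in each library (circle, square and triangle for replicates 1, 2 and 3; black for control, green for p300-ifKO), with mean and SD in red and each vertical axis starting at 0. For Vgll3 the 3 p300-ifKO libraries lie between 53.7 and 150, below the controls at 178 to 325, and p300-ifKO replicate 1 is the lowest library for Tead1, Yap1, Wwtr1, Vgll3 and Vgll4.

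Counted over the family, 9 members had a p in DESeq2 and Vgll1 had none. Of the 8 other than Vgll3, 5 were lower and 3 higher in p300-ifKO, with a median log2 fold change of −0.17 beside −0.046 for all genes tested, of which 54.7% were lower. None of the 8 passed in DESeq2, with all 6 libraries, and 0 had an unadjusted p under 0.05, beside 1.32% of all genes. In the edgeR quasi-likelihood test 7 of the 8 were kept by the filter, 0 passed (adjusted p between 0.745 and 0.923) and 0 had an unadjusted p under 0.05. In edgeR 0.0117% of all genes tested passed.

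**Figure D3:**
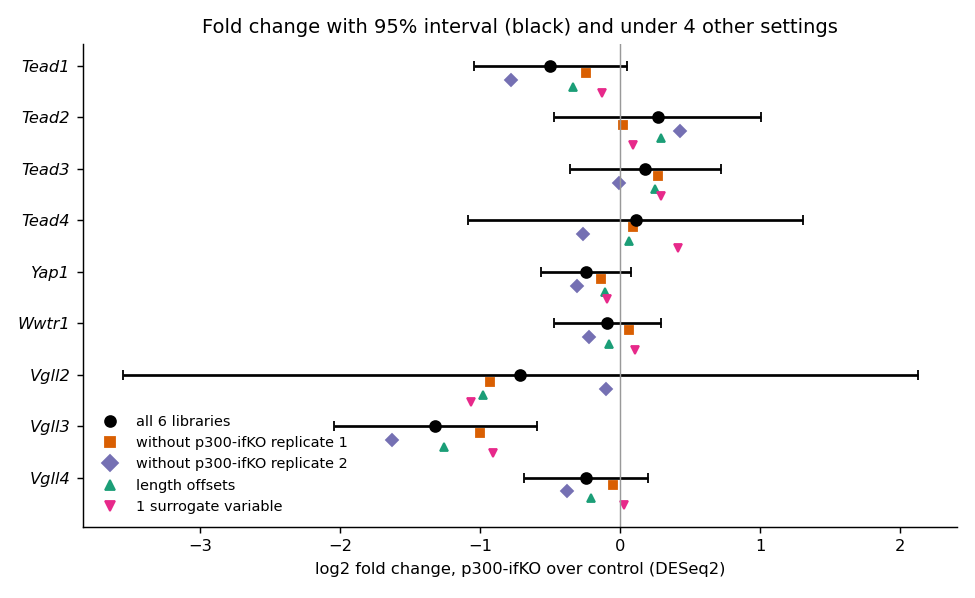
Log2 fold change of each gene in DESeq2 (black, with its 95% interval) and the same value without p300-ifKO replicate 1, without p300-ifKO replicate 2, with length offsets and with 1 surrogate variable. The Vgll3 values lie between −1.63 and −0.91, whereas the values of Tead3, Tead4, Wwtr1 and Vgll4 lie on both sides of 0.

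A trend with transcript length moved with these values. Among genes with a mean of at least 50 normalized counts, p300-ifKO replicate 1 lay above the gene's median library by 0.55 on the log2 scale for exonic lengths under 2 kb (median of 1571 genes) and below it by a median of −0.19 for those of 4 kb or more (7999 genes). No other library moved by more than 0.16 in either class. Of the genes of 4 kb or more, 59.1% had their lowest value in p300-ifKO replicate 1 and 69.2% were lower in p300-ifKO, with a median log2 fold change of −0.082. In 5 of 9 members that replicate was the lowest library, beside 24.2% of all genes tested: Tead1 (13.6 kb), Yap1 (9.26 kb), Vgll3 (7.10 kb), Vgll4 (5.40 kb) and Wwtr1 (4.78 kb). The other members of more than 4 kb went another way, with Tead2 (4.79 kb) highest in p300-ifKO replicate 1 and Tead3 (6.71 kb) lowest in control replicate 3. With a smooth length offset for each library, an alternative chosen after seeing the data, Yap1 was at −0.11, Tead1 at −0.34, Vgll4 at −0.21 and Wwtr1 at −0.076. In that fit Yap1 had 549, 528 and 573 normalized counts in controls and 502, 496 and 533 in p300-ifKO mice, so that the groups overlapped. Vgll3 was at −1.26 (SE 0.32), with 321, 175 and 292 against 61.7, 142 and 123 normalized counts. The part of transcript length in these differences was not tested.

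**Figure D4:**
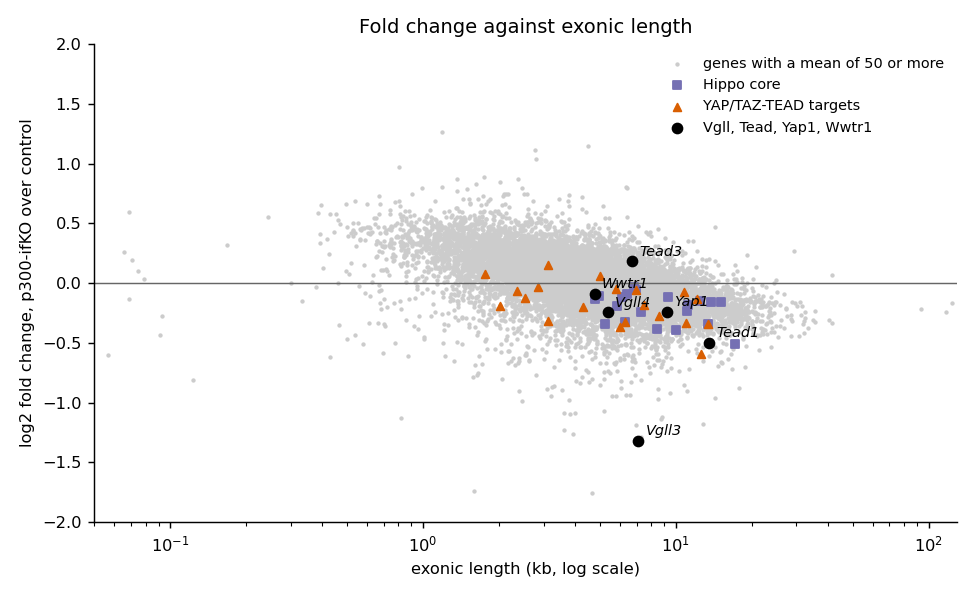
Log2 fold change (p300-ifKO over control) against exonic length in kb (log scale) for genes with a mean of at least 50 normalized counts, 13610 of them within the plotted range and 3 outside it (gray for all genes, squares for the pathway list, triangles for the targets, black circles for members). Long genes lie lower than short ones. Of the members drawn, Tead1, Tead3, Yap1, Wwtr1 and Vgll4 lie within the gray cloud, and Vgll3 lies below it at −1.32. Tead2, Tead4 and Vgll2 had means under 50 and are not drawn.

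The upstream Hippo pathway was read from a list of 20 genes. All 20 were lower in p300-ifKO, between −0.51 and −0.031 on the log2 scale with a median of −0.17, but none passed in DESeq2 and 1 had an unadjusted p under 0.05 (Fat4, a protocadherin upstream of the pathway, named after its values were seen). All 20 have exons of 4 kb or more, a length at which 69.2% of genes with a mean of at least 50 were lower. Without p300-ifKO replicate 1, 14 of 20 were lower with a median of −0.045 (all genes −0.014), and with length offsets 14 of 20 with a median of −0.084 (all genes −0.043). The 3 genes with the highest level were Nf2, which encodes merlin, an activator of the pathway, with 3138 ± 122 normalized counts in controls and 3072 ± 381 in p300-ifKO mice (SD, n = 3 each), the kinase gene Taok2, with 3785 ± 119 and 3489 ± 549, and Wwc1, which encodes KIBRA, with 2000 ± 19.6 and 1855 ± 295. In each of the 3, p300-ifKO replicate 1 was the lowest library and p300-ifKO replicate 2 the highest. Fat4 had 770, 805 and 1042 normalized counts in controls and 440, 829 and 567 in p300-ifKO mice (−0.51, SE 0.25, adjusted p 0.991 in DESeq2).

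Genes known as targets of YAP, TAZ and TEAD in other tissues and cell lines were a list of 22, of which 3 (Amotl2, Lats2 and Ptpn14) are also in the pathway list. In p300-ifKO mice 18 were lower and 4 higher, with a median of −0.16 and a range of −0.60 to 1.002. Among all genes tested, 54.7% were lower and the median was −0.046. Of the 22 targets, 13 have exons of 4 kb or more. At that length 69.2% of genes with a mean of at least 50 were lower, beside 28.4% at 2 to 4 kb and 13.4% under 2 kb. None of the 22 targets passed and 0 had an unadjusted p under 0.05 in DESeq2. Without p300-ifKO replicate 1, 16 were lower with a median of −0.11 (all genes −0.014), and with length offsets 16 with a median of −0.17 (all genes −0.043). Among common readouts of YAP activity, Ccn2 had 218 ± 60.7 normalized counts in controls and 214 ± 50.1 in p300-ifKO mice (SD, n = 3 each), and Ccn1 had 92.7 ± 19.7 and 81.1 ± 4.04, a difference of −0.19 on the log2 scale (SE 0.26). Ankrd1 was near the limit of detection, between 1.02 and 7.07 in the 6 libraries, at 1.002 on the log2 scale (SE 1.16). These 3 genes were named after their values were seen.

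Of the 3 targets with the highest level, Arhgef17 had 7373 ± 225 and 6996 ± 1126 normalized counts, and Crim1, a transmembrane protein that binds growth factors, 2823 ± 98.7 and 2191 ± 993 (SD, n = 3 each). F3, the tissue factor of blood clotting, had 1179, 1123 and 1168 in controls and 1041, 1060 and 1086 in p300-ifKO mice, groups that did not overlap. Of all genes tested, 3.42% had every p300-ifKO library below every control library. Another target, Ccdc80, did so too, at 70.89 to 80.04 normalized counts against 84.05 to 92.86, and was named after its values were seen. F3 differed by −0.12 on the log2 scale (SE 0.11; DESeq2 adjusted p 0.991). Without p300-ifKO replicate 2, 4 pathway genes (Amot, Amotl1, Fat4 and Ptpn14) and 3 targets (Crim1, Ptpn14 and Rbms3) passed in DESeq2, named after their values were seen. Of the genes with an adjusted p in that fit, 4% were called in the lower direction.

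Markers of cell types that could carry these genes were compared between the groups. The summed level of 7 astrocyte markers was 11330 to 11590 normalized counts per kb in controls and 10430 to 11060 in p300-ifKO mice, without overlap (3.42% of single genes showed this arrangement), with 5 of 7 lower and a median log2 fold change of −0.066. With length offsets that median turned to 0.011, with 3 of 7 lower. Endothelial markers (6 genes) summed to 1042 to 1066 and 1001 to 1374, and mural cell markers (8 genes) to 1897 to 2121 and 1847 to 2283. Markers of fibroblasts of the meninges and vessels (5 genes) were all lower, with a median of −0.42, which was −0.022 without control replicate 3. Their summed level was 388 to 601 in controls and 259 to 420 in p300-ifKO mice, so that the groups overlapped, with p300-ifKO replicate 1 the lowest. None of the 5 passed in DESeq2, and 1 had an unadjusted p under 0.05 (Dcn, −0.56). In Col1a2 control replicate 3 had 436 normalized counts, against 180 and 140 in the other controls and 175, 181 and 242 in p300-ifKO mice. Both genes were named after their values were seen. The part of these markers in the Vgll3 difference was not tested.

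The remaining lists overlapped between the groups in their summed level. The medians of their log2 fold changes were 0.050 for excitatory neurons, −0.057 for interneurons, 0.22 for oligodendrocytes, −0.25 for oligodendrocyte precursors, 0.097 for microglia, 0.39 for choroid plexus and 0.44 for ependyma. The choroid plexus median was −0.23 when p300-ifKO replicate 3 was left out and 1.26 when control replicate 3 was. By region they were −0.049 for dentate gyrus, −0.16 for CA1, 0.041 for CA2, 0.24 for CA3, −0.057 for subiculum and 0.025 for thalamus. Leaving out a single library turned the direction for interneurons, choroid plexus, dentate gyrus, CA2, subiculum and thalamus. Besides Dcn, an unadjusted p under 0.05 in DESeq2 was found for Neurod2 of the excitatory neurons (0.33), Slc1a3 of the astrocytes (−0.25) and C1qa of the microglia (0.50). These genes too were named after their values were seen. No gene of any marker list passed in DESeq2, and no marker was at 0 in all libraries.

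The pattern of Vgll3 over the 6 libraries was compared with that of 13613 other genes by the root mean square difference of log2(normalized count + 1), each gene centered on its own mean, where 0 is an identical pattern. The 5 closest were Sstr1, a somatostatin receptor gene (0.26), Minar1 (0.27), Ep300 (0.31), Gm37309 (0.33) and Plagl1, a zinc finger transcription factor gene (0.33). The deviation of Vgll3 from its own mean was 0.87 on the same scale. Sstr1 had 266, 173 and 264 normalized counts in controls and 52.6, 201 and 149 in p300-ifKO mice. In all 5 the lowest library was p300-ifKO replicate 1, but in Sstr1, Minar1, Gm37309 and Plagl1 p300-ifKO replicate 2 lay above control replicate 2, whereas in Vgll3 and Ep300 it did not. The likeness describes these 6 libraries only.

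**Figure D5:**
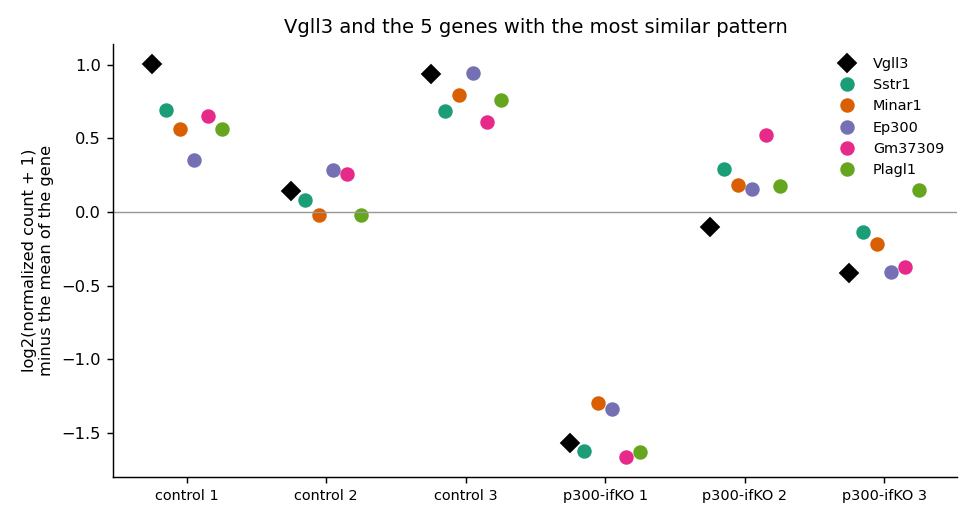
Log2(normalized count + 1) minus the mean of the gene in each library for Vgll3 (black diamonds) and the 5 genes with the most similar pattern, Sstr1, Minar1, Ep300, Gm37309 and Plagl1. All of them have their lowest value in p300-ifKO replicate 1, and all have their highest value in control replicate 1 or 3.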

How the data were processed

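RNA-seq libraries of 6 mice were used, 3 per group, grouped and numbered by the sample titles. The deposited values were raw counts of reads per gene, 23151568 to 28433823 per library. The authors trimmed single-end 50 bp reads with Trim Galore (version 0.6.4), aligned them with STAR (version 2.6.1) to GRCm38, kept reads with a mapping quality above 10 and counted them on exons of Ensembl release 99 with Rsubread. A strand setting is not given in the sources used here, so reads of Yap1 and Tead2 cannot be told from those of opposite-strand genes that overlap 1.25% (Gm20416) and 0.27% (Cd37) of their exonic bases. At most 1.35% of the 50-base stretches of a member's transcripts (Yap1) also lay in another gene. There were 0 sample columns left unused.

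Identifiers were matched to GENCODE M21 (99.41% of genes, all 10 members). Exonic length was that of the deposited table. Groups were compared with DESeq2 (version 1.42.0, R 4.3.3, two-sided Wald test, no covariate), the study's tool. P-values were adjusted over 32773 genes by Benjamini-Hochberg, and those under 0.05 passed. Counts were normalized by DESeq2 size factors, and the paired test of levels added a pseudocount of 1. In simulated counts with 200 changed genes, DESeq2 recovered 61% of 2-fold changes with 21 false calls, and 21% of 1.5-fold changes with 12. The edgeR test recovered 49.5% and 0%. Each gene was drawn on its own, without the length trend of p300-ifKO replicate 1, so these rates describe such counts only.

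Alternatives were the edgeR quasi-likelihood test (version 4.0.16) with and without a filter, TMM factors, a minimum of 10 counts in 3 libraries, no independent filtering, a replicate block, 1 surrogate variable (sva, version 3.50.0), leaving out each library and, chosen after seeing the data, length offsets by lowess. Named genes were the members, Ep300, Crebbp, genes that passed, the 3 genes of highest level in the pathway and target lists, and the 5 genes most like Vgll3. The members, lists and tests were chosen with earlier results of these data known.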

Additional observations from a re-analysis of the deposited data

How the results depend on the processing

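With all 6 libraries, 0 members, 0 pathway genes and 0 targets passed under each of the 8 other settings in DESeq2 and edgeR, whereas the fits that each left out a library gave from 0 to 2 members, from 0 to 4 pathway genes and from 0 to 3 targets. The higher counts came without p300-ifKO replicate 2, where 938 genes (8.43% of the 11129 with an adjusted p) passed, and the cause was not tested. The 2 members were Tead1 and Vgll3, and Vgll3 is no test because its p chose the family. In that fit Vgll2, Tead2, Tead3 and Tead4 had no adjusted p. The replicate block gave 0 members, 0 pathway genes and 0 targets, and 4 genes in all beside 2. Deviations of same-numbered libraries correlated by 0.27, −0.28 and 0.13 across 17071 genes, and 2 of 6 samples correlated best with their own number. Whether the numbers pair the mice cannot be decided from these values, because each correlation rests on a single library per group. With 1 surrogate variable Vgll4 turned to 0.028 and Wwtr1 to 0.11. Without a single library, Vgll2 ran from −1.39 to 0.13, Tead3 from −0.0097 to 0.27, Tead4 from −0.26 to 0.53 and Wwtr1 from −0.22 to 0.062, and each changed direction. Tead1, Tead2, Vgll3 and Yap1 did not change direction under the settings run, but with 1 surrogate variable Tead1 was at −0.13, Tead2 at 0.089 and Yap1 at −0.091, and Tead2 was at 0.019 when p300-ifKO replicate 1 was left out and 0.038 when control replicate 2 was. Without control replicate 3, Tead1 was at −0.34, Yap1 at −0.16, Vgll4 at −0.11, Wwtr1 at −0.033 and Vgll3 at −1.21. Without p300-ifKO replicate 1 these 5 genes were at −0.24, −0.14, −0.050, 0.062 and −1.0. The number of neighbors in level that differed was 0 under the settings run, but 5 libraries cannot reach a p below 0.0625. Without division by length, Tead1 and Yap1 were ahead of Vgll4 and Wwtr1. Depth limits Vgll1, Vgll2 and Tead4 most, the last with 8 to 24 counts per library.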
